A study of Homo sapiens with 4 samples.

Results

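The transcripts of EGF family ligands, of the ERBB receptors they bind and of the receptor inhibitor ERRFI1 were measured in cells labelled as a gastric cancer cell line and treated with fibroblast growth factor 2 (FGF2). The set held 10 of the 51103 genes listed for each library, matched by gene name: the ligand genes AREG, EREG, HBEGF, TGFA, BTC and NRG1, the receptor genes EGFR, ERBB2 and ERBB3, and ERRFI1. Polyadenylated RNA was sequenced from cells that carry the label AGS, the name of an established human gastric adenocarcinoma line, and that were grown in medium with fetal bovine serum. The 2 libraries labelled FGF2 came from cells that received recombinant human FGF2 at 20 ng/mL for 24 h, and 2 further libraries carried the label NC, an abbreviation left unexplained. The treatment protocol entered for the NC libraries also describes FGF2 addition, so the groups rest on the titles and treatment fields, and what was added to NC cultures is unknown.

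EGF family ligands are made as membrane-anchored precursors, and metalloproteases of the ADAM family cut them loose. Released ligands bring ERBB receptors together in pairs, which switches on the receptor kinases and, downstream, the RAS to ERK and PI3 kinase cascades. EGFR binds EGF, TGF-alpha, amphiregulin and HB-EGF, ERBB3 binds neuregulins and has an impaired kinase, and ERBB2 has no known ligand and acts as a partner of the others. ERRFI1, also called MIG6, is a cytoplasmic protein that binds the EGFR kinase domain, blocks its activation and promotes removal of the receptor. In the stomach TGF-alpha and EGFR act in the upkeep of the surface epithelium, and ERBB2 is amplified in a subset of gastric cancers, where it is a drug target.

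The FGF2 libraries held 13790335 and 27598608 counts and the NC libraries 14073340 and 27325697 counts. Library 1 had the higher count at only 2 of the 22043 genes detected in the FGF2 group and at 2 of the 22485 detected in the NC group, so nearly every count of library 1 was equalled or exceeded in library 2, as when the deeper library contains the shallower. Both libraries of a group therefore stand for 1 sample, n is 1 in each group, and no p-value was computed. A ratio below is the log2 ratio of FGF2 library 2 over NC library 2 after TMM scaling, with an exact Clopper-Pearson 95% interval that covers counting error only. The ratio from library 1 and the ratio from library 2 less library 1 follow it, and these non-overlapping portions of the counts are termed read sets. A gene was called when both FGF2 read sets lay at least 1.5-fold above, or below, both NC read sets, and its mean over the 4 read sets was 50 counts or more. This rule called 346 of 11000 genes higher (3.15%) and 573 lower (5.21%), or 267 higher and 722 lower when only the total count was used for scaling. A looser bound of 1.2-fold called 12.8% higher and 13.4% lower.

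The label was set against marker genes. Keratin genes of simple epithelia were abundant, with KRT8 at 191 FPKM in FGF2 library 2 and 270.3 FPKM in NC library 2, and KRT18 at 199 and 193 FPKM. Of 10 epithelial markers 4 had enough counts for the call rule. Of these 1 was called higher and 0 lower, beside backgrounds of 3.15% and 5.21% over all genes. The call was KRT19, another keratin gene, at 47.6 FPKM in FGF2 library 2 against 27.3 FPKM in NC library 2, a log2 ratio of 0.89 (0.80 to 0.97). FPKM are counts scaled to exon length and to the library's total. Other defining epithelial genes were at or near 0: EPCAM stood at 0.518 FPKM in FGF2 library 2 and 1.19 FPKM in NC library 2, CDH1 had 4 and 20 counts, and ESRP1 had 0 counts in all 4 libraries. The cells are therefore named here by their label only. The summed level of 10 fibroblast markers was 84.4 and 84.1 FPKM in the FGF2 libraries and 141.6 and 144.8 FPKM in the NC libraries. Nearly all of this sum came from COL1A1, THY1 and PDGFRB. In library 2 of FGF2 and of NC, COL1A1 stood at 59.5 and 103.8 FPKM, THY1 at 18.0 and 18.9 FPKM and PDGFRB at 6.29 and 21.0 FPKM. Of the 10 fibroblast markers 3 were measured well enough for the call rule. Of these 0 were called higher and 2 lower, beside backgrounds of 3.15% and 5.21%. COL1A1 and PDGFRB were lower and THY1 was neither, while COL1A2 and FAP had 0 counts in all 4 libraries. Endothelial and immune marker sums were between 0.458 and 1.14 FPKM, with KDR, TEK and CD3E at 0 counts in all 4 libraries. CD68 was also at 0, but 81.7% of its exon bases overlap a gene on the same strand, so its count says little. The part of these markers in the results below was not tested, and in bulk RNA fewer cells of a type and less RNA per cell cannot be told apart.

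Of the 10 genes, 5 had enough counts for the call rule. ERRFI1 was called higher in FGF2-treated cells and 0 genes were called lower, beside backgrounds of 3.15% and 5.21%. At the 1.2-fold bound EGFR joined ERRFI1 among the higher genes and ERBB2 was lower, beside backgrounds of 12.8% and 13.4%, while HBEGF and NRG1 met neither bound. The median log2 ratio of the 5 genes was 0.15, against 0.03 over all 11000 genes. TGFA and ERBB3 had too few counts for the rule, and AREG, EREG and BTC were at 0 to 4 counts in every library.

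**Figure D1:**
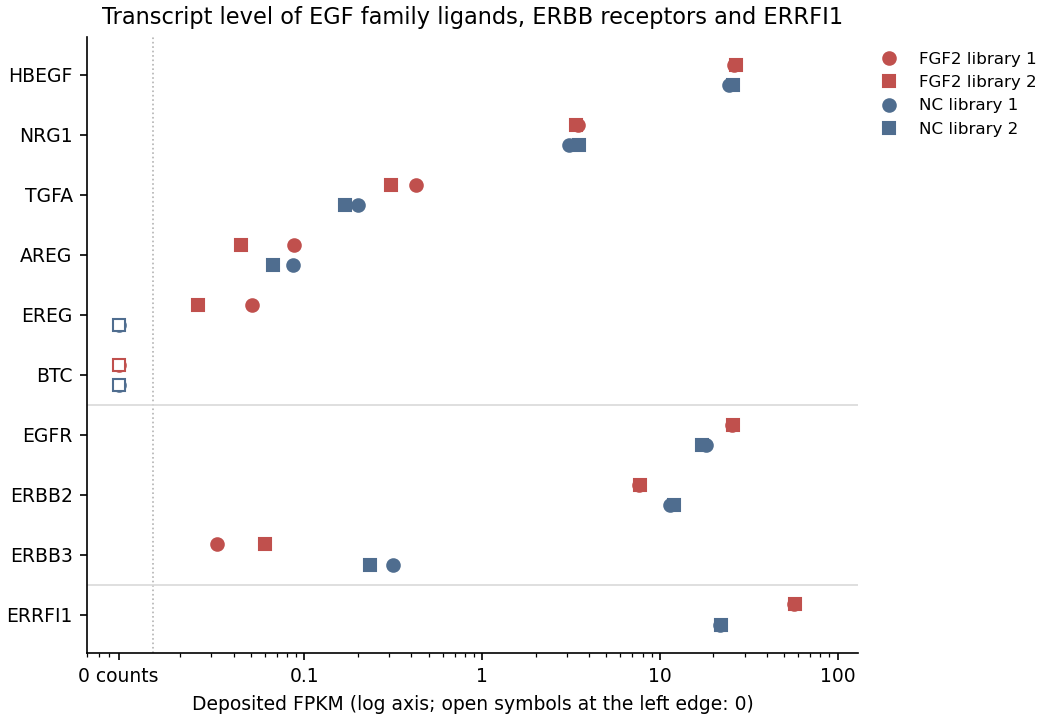
Deposited FPKM (log axis) of each gene in each library, with FGF2 libraries in red above NC libraries in blue and open symbols at the left edge for 0 counts. HBEGF, EGFR, ERBB2, NRG1 and ERRFI1 lie above 3 FPKM in every library, and the other 5 genes lie below 0.5 FPKM.

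HBEGF, which encodes a heparin-binding ligand of EGFR and ERBB4, gave most of the ligand transcript in both groups. It lies on chromosome 5 (ENSG00000113070, 140332843 to 140346631, minus strand, GRCh38 with GENCODE 29). Its counts were 1092 and 2243 in the FGF2 libraries and 1038 and 2129 in the NC libraries. Per length this was 26.2 and 26.9 FPKM with FGF2 and 24.4 and 25.8 FPKM in NC. The log2 ratio was 0.15 (0.06 to 0.23), with 0.20 from library 1 and 0.10 from library 2 less library 1. With TMM scaling the nearest read sets of the groups differed by 1.03-fold, less than the 1.11-fold between the NC read sets. With total-count scaling the log2 ratio was 0.06 and the groups overlapped, at 26.2 FPKM in FGF2 library 1 and 27.3 FPKM in NC library 2 less library 1. HBEGF made up 87.7% of the summed ligand FPKM in FGF2 library 2 and 87.3% in NC library 2, and its level was above that of 88.0% and 87.5% of the genes kept by the expression filter.

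NRG1, whose neuregulins bind ERBB3 and ERBB4, was the other ligand gene with a substantial level. NRG1 lies on chromosome 8 (ENSG00000157168, 31639386 to 32767959, plus strand). Its counts were 540 and 1060 in the FGF2 libraries and 489 and 1086 in the NC libraries, or 3.46 and 3.39 FPKM with FGF2 and 3.07 and 3.51 FPKM in NC. This is a log2 ratio of 0.04 (-0.09 to 0.16). Library 1 gave 0.27 and library 2 less library 1 gave -0.18, so the read sets differed in direction and the groups overlapped. NRG1 has 11328 bases of merged exons over many isoforms, and FPKM spread over that length understates the level of a short isoform. Its share of the summed ligand FPKM was 11.0% in FGF2 library 2 and 11.9% in NC library 2.

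TGFA, which encodes TGF-alpha, an EGFR ligand, was present at low counts. The gene lies on chromosome 2 (ENSG00000163235, 70447280 to 70554193, minus strand). There were 29 and 42 counts in the FGF2 libraries, against 14 and 23 in the NC libraries, at 0.424 and 0.307 FPKM with FGF2 and 0.200 and 0.170 FPKM in NC. Their log2 ratio was 0.93 (0.17 to 1.74), with 1.15 from library 1 and 0.53 from library 2 less library 1. Both read sets pointed upwards, but they overlapped between groups: the 13 counts left in FGF2 library 2 after library 1 was taken away were fewer than the 14 in NC library 1. At a mean of 16.25 counts per read set no call was made.

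AREG (amphiregulin), EREG (epiregulin) and BTC (betacellulin), further ligands of the family, were close to or at 0. AREG had 2 and 2 counts in the FGF2 libraries, against 2 and 3 in the NC libraries, and no ratio was formed. EREG had 4 and 4 counts in the FGF2 libraries, against 0 and 0 in the NC libraries. Set against a floor of 3 counts in NC library 2, the 4 counts give 1.40-fold. That value leaves out the counting error of the 4 counts, so it is no lower bound and does not establish a difference. All 4 counts already stood in library 1 and 0 were added in the rest of library 2. BTC had 0 counts in all 4 libraries, which allows up to 0.0386 FPKM in FGF2 library 2 and 0.039 FPKM in NC library 2. Of 19922 protein-coding genes, 30.9% had at most 4 counts in every library, so such levels were common.

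The ligand genes of the set that were at or near 0 are neighbours. EREG (74365143 to 74388751, plus strand), AREG (74445134 to 74455009, plus strand) and BTC (74744759 to 74794686, minus strand) lie side by side on chromosome 4 with EPGN, which encodes the ligand epigen. The gap is 49835 bases between EPGN and EREG, 56382 bases between EREG and AREG and 289749 bases between AREG and BTC. Within the 486214 bases from EPGN to BTC, the tables list 6 genes, of which EPGN, BTC and 2 antisense genes had 0 counts in all 4 libraries. HBEGF, TGFA and NRG1, the ligand genes with more counts, lie on other chromosomes. Outside the set, EGF, NRG2, NRG3 and NRG4 had at most 5 counts in any library and are not among these 6 genes. Low ligand counts were therefore not particular to this stretch.

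EGFR, the receptor of most of these ligands, was the most abundant receptor transcript and higher in the FGF2 sample. It spans 55019021 to 55211628 on the plus strand of chromosome 7 (ENSG00000146648). The counts were 4386 and 8939 in the FGF2 libraries and 3191 and 5932 in the NC libraries, which is 25.4 and 25.9 FPKM with FGF2 and 18.1 and 17.3 FPKM in NC. The log2 ratio was 0.66 (0.62 to 0.71), a 1.58-fold higher level, with 0.58 from library 1 and 0.75 from library 2 less library 1, both just outside that interval. The groups did not overlap, and the nearest read sets of the groups differed by 1.499-fold, just short of the 1.5-fold bound. EGFR was called higher at 1.5-fold when FGF2 library 2, or NC library 2, was used whole in place of its read sets. Such a library appears to contain library 1, so this pools the read sets and is no check without library 1. Read sets within a group differed by 1.02-fold in FGF2 and 1.10-fold in NC. Of its exon bases 1.5% are shared with the opposite-strand gene EGFR-AS1, which had 9 and 17 counts in the FGF2 libraries, against 4 and 5 in the NC libraries.

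ERBB2, the ligandless partner receptor, ran the other way and was lower in the FGF2 sample. It spans 39687914 to 39730426 on the plus strand of chromosome 17 (ENSG00000141736). The counts were 1088 and 2197 in the FGF2 libraries and 1651 and 3406 in the NC libraries, or 7.64 and 7.71 FPKM with FGF2 and 11.4 and 12.1 FPKM in NC. The log2 ratio was -0.56 (-0.638 to -0.483), with -0.477 from library 1 and -0.643 from library 2 less library 1, both just outside that interval. The groups did not overlap and the nearest read sets differed by 1.39-fold, above the 1.2-fold and below the 1.5-fold bound. MIEN1 and PGAP3 on the opposite strand share 7.4% of its exon bases, and since the library kit does not mark strand, reads of those stretches cannot be assigned to a gene. PGAP3 had 45 and 89 counts in the FGF2 libraries, against 93 and 226 in the NC libraries.

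ERBB3, the neuregulin receptor, was barely transcribed and had fewer counts in the FGF2 sample. It spans 56076799 to 56103505 on the plus strand of chromosome 12 (ENSG00000065361). There were 4 and 15 counts in the FGF2 libraries, against 40 and 58 in the NC libraries. These are 0.0321 and 0.0601 FPKM with FGF2 against 0.314 and 0.235 FPKM in NC. Library 2 gave a log2 ratio of -1.84 (-2.81 to -1.04), but library 1 gave -3.05 and library 2 less library 1 gave -0.67, both outside that interval. Each FGF2 read set was below each NC read set, by 1.61-fold for the nearest, while the read sets within a group differed by 2.71-fold in FGF2 and 2.10-fold in NC. With a mean of 18.25 counts per read set it fell under the count minimum. ERBB4, the other neuregulin receptor, had 0 counts in all 4 libraries.

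**Figure D2:**
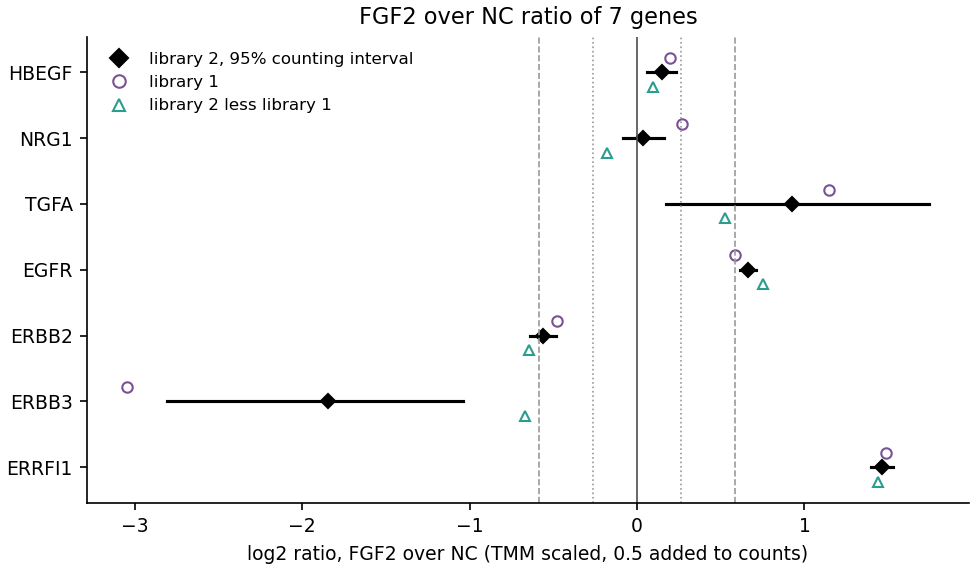
Log2 ratio of FGF2 over NC for the 7 genes with a ratio (x axis), from library 2 with its 95% counting interval (black), from library 1 (circles) and from library 2 less library 1 (triangles). Dashed and dotted lines mark 1.5-fold and 1.2-fold. ERRFI1 lies beyond the dashed line on every symbol, EGFR sits at or past it, ERBB2 lies on the lower side, and the symbols of ERBB3 and NRG1 spread widely.

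The balance of the receptors was compared within libraries, a measure that no scaling between libraries changes. EGFR stood at 3.32 and 3.35 times the FPKM of ERBB2 in the FGF2 libraries and at 1.59 and 1.44 times in the NC libraries. Between library 2 of the groups this ratio was 2.34-fold higher with FGF2 (2.19 to 2.49, counting error only), with 2.09 from library 1 and 2.63 from library 2 less library 1. EGFR thus made up 76.9% of the summed FPKM of the 3 receptors in FGF2 library 2 and 58.5% in NC library 2. The share of ERBB2 was 22.9% with FGF2 and 40.7% in NC, and that of ERBB3 was 0.179% and 0.792%. The summed receptor level itself was 33.1 and 33.6 FPKM in the FGF2 libraries and 29.8 and 29.6 FPKM in the NC libraries. EGFR and HBEGF, its main ligand transcript here, lay close together with FGF2, where HBEGF stood at 1.03 and 1.04 times EGFR. In NC it stood at 1.35 and 1.49 times EGFR. FPKM of different genes depend on the merged exon length used, 12521 bases for EGFR and 3018 bases for HBEGF. That length cancels when such a ratio is compared between the groups, but not in the ratio itself.

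ERRFI1, the inhibitor of EGFR family kinases, had the clearest difference of the set. The gene lies on the minus strand of chromosome 1 (ENSG00000116285, 8004404 to 8026308). Its counts were 3292 and 6641 in the FGF2 libraries and 1279 and 2532 in the NC libraries, at 57.0 and 57.5 FPKM with FGF2 and 21.7 and 22.1 FPKM in NC. The log2 ratio was 1.46 (1.40 to 1.53), a 2.76-fold higher level, with 1.49 from library 1 and 1.44 from library 2 less library 1. The nearest read sets of the groups differed by 2.71-fold, while those within a group differed by 1.001-fold in FGF2 and 1.04-fold in NC. AL034417.4 on the opposite strand shares 3.7% of its exon bases and had 20 and 40 counts in the FGF2 libraries, against 17 and 33 in the NC libraries.

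ERRFI1 was also higher relative to its target receptor. Its FPKM was 2.22 times that of EGFR in FGF2 library 2 and 1.28 times in NC library 2, a 1.74-fold higher ratio with FGF2 (1.65 to 1.84), with 1.87 from library 1 and 1.61 from library 2 less library 1. Relative to ERBB2 it was 4.07-fold higher (3.79 to 4.37). The order by FPKM, which depends on the merged exon length of each gene, differed between the groups at the top. ERRFI1 led in the FGF2 libraries, followed by HBEGF and EGFR at close levels. HBEGF led in the NC libraries, followed by ERRFI1 and EGFR. Below them ERBB2 and NRG1 kept the same order in all 4 libraries. ERRFI1 was above 95.2% of the genes kept by the expression filter in FGF2 library 2 and above 85.3% in NC library 2.

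**Figure D3:**
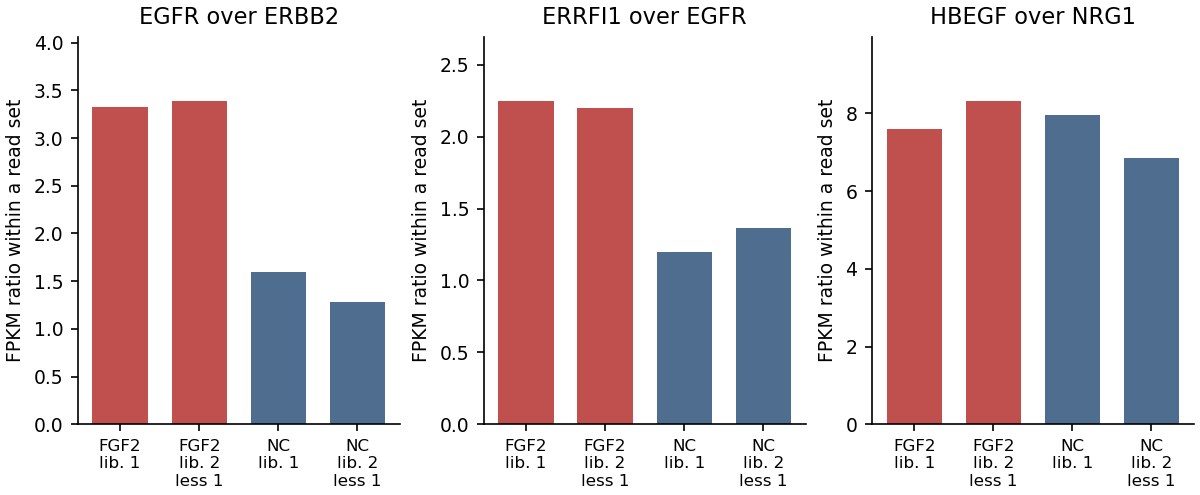
FPKM of 1 gene over that of another within each read set (y axis, starting at 0), for FGF2 (red) and NC (blue), with library 1 and library 2 less library 1 as separate bars. EGFR over ERBB2 and ERRFI1 over EGFR are higher in both FGF2 bars than in both NC bars, and HBEGF over NRG1 overlaps between groups.

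The promoters of the genes that were higher, ERRFI1 and EGFR, are shown to give the sequence before their starts, as the 250 bases upstream of the RefSeq start (GRCh38.p14, strand of the gene). Capitals mark matches of the Sp1 motif GGGCGG or its reverse complement. The ERRFI1 window is chr1:8026310-8026559 on the minus strand and the EGFR window is chr7:55018767-55019016 on the plus strand.
ERRFI1: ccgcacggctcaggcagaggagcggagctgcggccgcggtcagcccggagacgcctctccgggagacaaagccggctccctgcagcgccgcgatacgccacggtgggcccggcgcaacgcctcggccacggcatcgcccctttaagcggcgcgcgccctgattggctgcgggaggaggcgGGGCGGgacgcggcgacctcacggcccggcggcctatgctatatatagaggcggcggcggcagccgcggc
EGFR: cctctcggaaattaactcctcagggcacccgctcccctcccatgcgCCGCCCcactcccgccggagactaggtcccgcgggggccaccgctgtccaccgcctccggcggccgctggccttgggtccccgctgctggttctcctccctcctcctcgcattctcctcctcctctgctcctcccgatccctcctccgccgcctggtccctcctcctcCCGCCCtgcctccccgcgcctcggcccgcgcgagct
The windows had a GC content of 75.2% for ERRFI1 and 73.6% for EGFR, above 89.9% and 86.9% of 35116 promoter windows of the same length. ERRFI1 held 1 Sp1 match and EGFR 2, a motif present in 42.6% of all windows. On either strand these windows held no match to the AP-1 motif TGANTCA (in 6.57% of all windows), the CRE motif TGACGTCA (1.65%), the ETS motif CCGGAA (14.5%), the E-box CACGTG (6.34%), the TATA motif TATAAA (10.7%) or the CArG box of serum response factor (1.16%). The TATA motif was sought as that exact string only. The ERRFI1 window holds the similar stretch tatatata shortly before the start, which was not counted, so absence of a TATA box is not shown. A further EGFR window, at an alternative start inside the gene (chr7:55109589-55109838), differed in these letters: its GC content was 38.8%, and it held 2 AP-1 and 2 TATA matches. Matches describe letters in these windows only, and the counts were made per gene, so they do not tell which start was used. RefSeq windows matched 8 of the 10 genes, all but ERBB3 and NRG1.

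Genes of the family outside the set and genes that release the ligands, carry the receptor signal or remove the receptors were counted in the same way. In all, 56 of 68 had enough counts, with 2 called higher and 1 lower, beside backgrounds of 3.15% and 5.21%, and a median log2 ratio of 0.10. Of the shedding genes 11 of 12 were measured, with 0 called higher, 0 lower and a median of 0.03. At the 1.2-fold bound 1 shedding gene was higher and 3 were lower, beside backgrounds of 12.8% and 13.4%. The higher gene was the metalloprotease gene ADAM19 at 0.49 (0.40 to 0.58). ADAM12, another metalloprotease gene, was lower at -0.62 (-0.80 to -0.44), and so was RHBDF1, which encodes an inactive rhomboid that helps ADAM17 mature, at -0.58 (-0.71 to -0.46). With total-count scaling ADAM12 and RHBDF1 were called lower at 1.5-fold. ADAM12 was also called when the FGF2 side was library 1 alone or library 2 whole. BACE1 was lower at -0.48 (-0.63 to -0.32), with 43.3% of its exon bases shared with genes of the opposite strand.

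Of 26 genes of receptor turnover and inhibition, 25 were measured, with 2 called higher and 0 lower and a median of 0.11, beside backgrounds of 3.15% higher and 5.21% lower. UBASH3B encodes a phosphatase that binds CBL and slows the breakdown of activated EGFR. It had 1428 and 2824 counts in the FGF2 libraries, against 518 and 974 in the NC libraries, a log2 ratio of 1.61 (1.50 to 1.71), and its groups did not overlap. SH3KBP1, also called CIN85, encodes an adaptor that links CBL to receptor endocytosis. It had 750 and 1414 counts in the FGF2 libraries, against 472 and 867 in the NC libraries, a log2 ratio of 0.78 (0.65 to 0.90), and was not called when only the total count was used for scaling. At the 1.2-fold bound 6 genes of the list were higher, among them the ubiquitin ligase gene CBL at 0.30 (0.24 to 0.36) and the cytokine signalling inhibitor SOCS3 at 0.67 (0.50 to 0.85), and 2 were lower, beside backgrounds of 12.8% and 13.4%. The related ligase gene CBLB was lower at -0.92 (-1.18 to -0.68), but with -1.47 from library 1 and -0.48 from library 2 less library 1. CBLB was among the 1.5-fold calls when the FGF2 side was library 1 alone or library 2 whole. With library 1 alone on the NC side, both CBLB and SOCS3 were among them.

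Among adaptors and effectors 20 of 24 were measured, with 0 called higher and 1 lower, beside backgrounds of 3.15% and 5.21%, and a median of 0.06. The call was PIK3R3, which encodes a regulatory subunit of PI3 kinase, at 1.08 FPKM in FGF2 library 2 and 2.25 FPKM in NC library 2, a log2 ratio of -0.97 (-1.21 to -0.74). This call is uncertain, because 17.4% of its exon bases overlap a gene transcribed in the same direction. At the 1.2-fold bound 1 gene of the list was higher and 4 were lower, beside backgrounds of 12.8% and 13.4%. The higher gene was the adaptor gene SHC1 at 0.38 (0.33 to 0.42). Besides PIK3R3, the lower genes were PIK3CB, SRC and STAT3 at -0.31, -0.33 and -0.36. The remaining ligand and receptor genes of the family, EGF, EPGN, NRG2, NRG3, NRG4 and ERBB4, had at most 5 counts in any library.

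**Figure D4:**
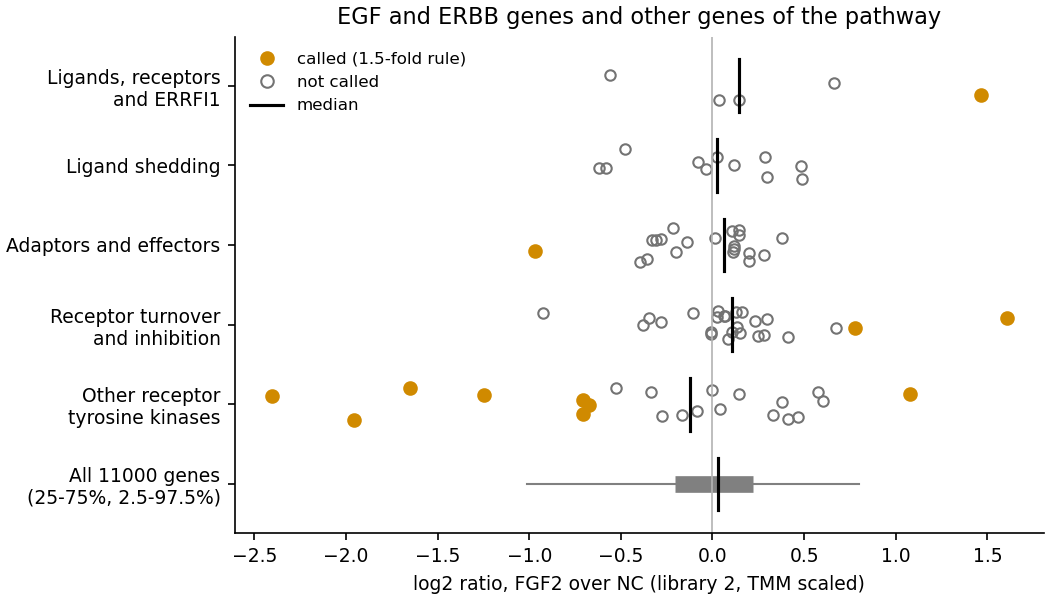
Log2 ratio of FGF2 over NC (x axis) for each measured gene of 5 lists, with filled symbols for genes called by the 1.5-fold rule and black bars for medians. The bottom row gives all 11000 genes, with the middle 50% as a thick bar from -0.20 to 0.22 and the central 95% as a line from -1.01 to 0.80. ERRFI1, UBASH3B and EPHA2 lie beyond that line on the right, and FGFR2, DDR2, PDGFRB and FGFR3 on the left.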

How the data were processed

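Per the file headers, the authors deposited raw read counts per gene and FPKM for each library. HISAT2, HTSeq 0.13.5 and GRCh38 are named in the submitters' processing notes, without roles or an annotation release (not given in the sources used here). For the 7 genes with over 20 counts in a library, the exon length implied by the deposited FPKM and counts equalled the merged exon length in GENCODE 29, whose GRCh38 coordinates are given. Genes were filtered with filterByExpr and scaled by TMM in edgeR 4.0.16 under R 4.3.3 (15030 genes kept, of which 11000 reached the mean of 50 counts). Ratios carry 0.5 added to each count. Clopper-Pearson intervals came from SciPy 1.17.1. Alternatives were total-count scaling, DESeq2 1.42.0 size factors, other bounds and filters, and leaving out each library. No test was run, because the libraries of a group overlap in counts. The genes, lists and rule were chosen with earlier results of these data known. All 10 genes and the called genes of each pathway list are named; those meeting only the 1.2-fold bound, and the markers given with values, were picked after their values were seen. Promoter windows are from RefSeq.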

Additional observations from a re-analysis of the deposited data

How the results depend on the processing

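The call of ERRFI1 held under all 11 alternatives to the main setting. Most of these check little, since a looser bound or filter, or fewer or pooled read sets, could hardly remove a call. Total-count scaling, DESeq2 size factors and the 2-fold bound could have removed it. The log2 ratios of HBEGF, TGFA, EGFR, ERBB2, ERBB3 and ERRFI1 kept their sign in 10 of 10. NRG1 kept it in 6 of 10. Leaving out library 1 of either group could not change a ratio, which is formed from library 2. Those alternatives count among the 10 but do not check the sign. The count of called genes in the set changed through EGFR, whose nearest read sets lie just under 1.5-fold, through ERBB2 at the 1.2-fold bound, and through ERBB3 where the count minimum was dropped. It was 2 higher and 1 lower at the 1.2-fold bound (EGFR added, ERBB2 lower) and 2 higher and 1 lower with no filter (EGFR added, ERBB3 lower). With no count minimum 1 gene, ERBB3, was lower. Leaving out 1 library gave 1 to 2 higher: EGFR passed where library 2 of FGF2, or of NC, was used whole. Library 2 appears to contain the counts of library 1, so library 1 was not removed there. Of the 104 pathway and other receptor kinase genes, 78 had enough counts, with 3 called higher and 8 lower, beside backgrounds of 3.15% and 5.21%. The 1.2-fold bound gave 14 and 17, beside backgrounds of 12.8% and 13.4%. The 2-fold bound gave 4 lower, no filter gave 5 higher, and leaving out 1 library gave 3 to 5 higher. NRG1 ranged from -0.18 to 0.26 over its alternatives, ERBB3 from -3.05 to -0.22 and ERRFI1 from 1.34 to 1.49. EGFR ranged from 0.55 to 0.75 and ERBB2 from -0.65 to -0.48. Of 70 alternative ratios of the set, 24 lay outside the counting interval of the main ratio. Only 4 of 10 lay inside it for EGFR and 5 of 10 for ERBB2. With total-count scaling the EGFR ratio was 0.577, below the 0.585 of a 1.5-fold difference. Depth limits AREG, EREG, BTC, TGFA and ERBB3, whose counts cannot show a difference of moderate size. No paired analysis was possible because the libraries of a group were counted as 1 sample and no test was run.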

Other observations

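Other receptor tyrosine kinases were measured alongside EGFR and ERBB2. Of 36 such genes, 22 had enough counts, with 1 called higher and 7 lower beside backgrounds of 3.15% and 5.21% over all genes, and a median log2 ratio of -0.12. EPHA2, an ephrin receptor gene, was higher at 107.7 FPKM in FGF2 library 2 and 54.1 FPKM in NC library 2, a log2 ratio of 1.08 (1.04 to 1.13). At the 1.2-fold bound 6 genes of the list were higher and 8 lower, beside backgrounds of 12.8% and 13.4%. Like EGFR, the hepatocyte growth factor receptor gene MET was higher only at that bound, at 0.58 (0.53 to 0.62). So was AXL at 0.41 (0.39 to 0.44), the receptor gene with the most transcript of the list in FGF2 library 2 at 174 FPKM. EPHB2, FGFR1 and FLT1 were too, at 0.60, 0.38 and 0.33. EPHB2 was called at 1.5-fold when the NC side was library 1 alone or library 2 whole.

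The lower genes included the collagen receptors and the insulin receptor. DDR2 had 100 counts in FGF2 library 2 and 410 in NC library 2, a log2 ratio of -1.96 (-2.29 to -1.65). DDR1 was lower at -0.67 (-0.78 to -0.57), INSR at -0.71 (-0.91 to -0.51) and the ephrin receptor gene EPHA4 at -0.70 (-0.94 to -0.47). The other called genes were FGFR2 at -2.41 (-2.66 to -2.16), PDGFRB at -1.65 (-1.75 to -1.56) and FGFR3 at -1.25 (-1.44 to -1.06). IGF1R, a relative of INSR, was lower only at the 1.2-fold bound, at -0.53 (-0.59 to -0.46).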
